A study of Mus musculus with 25 samples.

Results

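Ms4a7, Ms4a6b, Ms4a6c and Ms4a6d are 4 genes of the MS4A family of membrane proteins among the 23351 genes of the deposited table. They were selected on their symbols with their values in all 3 groups already known, so their levels and differences are given as a description and with no p-value. Of the 4 genes, 3 passed the filter on low values and entered the fit across 4319 genes. Ms4a6b did not pass it, since it reached an RPKM of 1 in 6 libraries where 7 were asked for, and the next library held 0.943. RPKM counts reads per length of gene and per read sequenced, so levels of different genes can be set side by side.

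RNA was sequenced in 25 libraries from mouse brain, labelled as oligodendrocyte precursor cells, the progenitors of myelinating glia, collected by laser capture. White matter stroke is an ischaemic lesion of the myelinated tracts. The labels put 7 libraries at Day 15 of white matter stroke, 8 at Day 5 and 10 in a control group. They give no genotype, strain, sex or age of the animals, do not say what was done to the controls, and do not tie libraries to animals. If libraries of a group come from 1 animal, their p-values are smaller than they should be. No source used here says how the captured areas were chosen.

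MS4A proteins cross the cell membrane several times and are found mostly on blood and immune cells. Ms4a1 encodes the B cell antigen CD20 and Ms4a2 a chain of the high-affinity IgE receptor of mast cells, while Ms4a7 and the Ms4a4 and Ms4a6 genes are known chiefly from macrophages and monocytes. In mouse brain Ms4a7 is used as a marker of macrophages at the borders of the brain and of cells that came in from the blood, and it is low in resting microglia. The human MS4A cluster lies at a locus associated with the risk of Alzheimer's disease.

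A pair of libraries from different groups resembled each other more than any other pair did. Day 5 replicate 4 and Day 15 replicate 5 correlated at 0.836 over 18291 genes that were detected but below the filter, where the next pair had 0.643 and the median of 300 pairs was 0.334. They shared 93.9% of the genes that either detected there, and the labels give no reason. Where a result turned on one of them, its value without that library is given. Genes at an RPKM of 1 or more numbered 1749 to 5266 per library at Day 15, 2353 to 6592 at Day 5 and 1306 to 4320 in controls, and the number of reads behind these values is unknown.

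The 250 bases before the start of Ms4a7, Ms4a6b and Ms4a6c are shown because these genes lie in 1 cluster. Each was also above the control median in all 8 Day 5 libraries, a pattern whose share over all genes was not computed. These bases come from RefSeq promoters of the build GRCm38.p6, matched by symbol for 3 of the 4 genes, all but Ms4a6d. The deposited values were made with mm9. Capitals mark each match, on either strand, to GGAAGT (the core bound by ETS factors such as PU.1) or to GAAANNGAA (a core of interferon response elements, bound by IRF factors). Ms4a7 has 2 starts in RefSeq, and both are given.
Ms4a7 start 1 (chr19:11336147-11336396, minus strand): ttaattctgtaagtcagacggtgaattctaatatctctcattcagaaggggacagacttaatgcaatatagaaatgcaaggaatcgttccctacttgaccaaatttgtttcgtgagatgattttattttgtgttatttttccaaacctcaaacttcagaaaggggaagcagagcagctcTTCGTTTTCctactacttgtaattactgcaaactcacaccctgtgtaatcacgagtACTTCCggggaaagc
Ms4a7 start 2 (chr19:11334696-11334945, minus strand): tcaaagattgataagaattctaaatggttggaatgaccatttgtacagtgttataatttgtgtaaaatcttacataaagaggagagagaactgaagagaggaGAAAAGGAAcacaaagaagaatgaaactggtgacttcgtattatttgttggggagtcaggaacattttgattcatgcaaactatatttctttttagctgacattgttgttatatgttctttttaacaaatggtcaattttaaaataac
Ms4a6b (chr19:11518309-11518558, plus strand): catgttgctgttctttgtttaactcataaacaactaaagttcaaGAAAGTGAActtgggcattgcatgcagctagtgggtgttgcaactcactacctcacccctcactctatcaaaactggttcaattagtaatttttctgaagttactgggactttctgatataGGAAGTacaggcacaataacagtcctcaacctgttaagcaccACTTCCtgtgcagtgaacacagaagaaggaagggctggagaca
Ms4a6c (chr19:11469118-11469367, plus strand): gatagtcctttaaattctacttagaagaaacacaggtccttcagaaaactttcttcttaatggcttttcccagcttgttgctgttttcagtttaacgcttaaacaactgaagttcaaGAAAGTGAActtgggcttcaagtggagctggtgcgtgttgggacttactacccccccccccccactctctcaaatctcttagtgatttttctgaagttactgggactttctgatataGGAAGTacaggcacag

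The promoters of Ms4a6b and Ms4a6c share an unbroken run of 48 bases that holds the ETS core in both. The run ends 71 bases before the start of Ms4a6b and 2 bases before that of Ms4a6c. Aligned over the 250 bases, they were identical at 59.6% of positions, against 44.8% to 50% for Ms4a7 with either gene. GAAANNGAA was found before 4 of 4 starts and GGAAGT before 3 of 4, where 7.13% and 19.7% of 32851 RefSeq promoters of that length held them. The C/EBP motif TTNNGNAA was before 4 of 4 starts (36.8% of all promoters), the E-box CANNTG before 2 (66.2%) and the AP-1 motif TGANTCA before 1 (6.75%). The longer PU.1 motif GAGGAAGT, which contains the ETS core, and TATAAA were before none (2.44% and 12.4% of all promoters). These are matches of letters, and no binding was measured.

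The transcripts of the 4 genes were compared because related genes can share reads. In GENCODE transcripts the coding sequences of Ms4a6b and Ms4a6d were identical at 80.03% of positions, those of Ms4a6b and Ms4a6c at 75.3% and those of Ms4a6c and Ms4a6d at 67.6%. Ms4a7 matched each of the other three at 49.2% to 54.4%. The longest shared run was 96 bases, between Ms4a6b and Ms4a6c, and no stretch of 100 bases, the read length in the labels, was common to any pair of the 4. No source used here says how reads that match more than 1 gene were counted, so values of the 3 Ms4a6 genes are less certain than those of Ms4a7.

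At Day 5 all 4 genes were above the control median in 8 of 8 libraries, and Ms4a7 had the highest level and the largest difference. The share of all genes that stand above controls in such counts was not computed. All tested genes together stood higher at Day 5 (median difference 0.61), so nothing particular to the 4 is read from the counts. Ms4a7 held 2.01 RPKM in the lowest Day 5 library, a median of 7.74 and 35.5 in the highest, against 0, 0.449 and 5.45 in controls. It was above every control in 6 of 8 Day 5 libraries. The overlap came from 2 controls, replicate 5 with 5.45 and replicate 8 with 3.74 RPKM, which stood above the lowest Day 5 library. Day 5 libraries had a mean of 12.7 ± 12.2 RPKM (SD, n = 8), against 1.21 ± 1.87 (SD, n = 10) for controls. The fitted difference was 2.52 on the log2(RPKM + 1) scale (SE 0.57), which understates the change of low genes, and it ranked 40 of 4319 from the top.

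Ms4a6d, described in mouse macrophages, had the next difference on that scale. It held 0.902, 2.55 and 14.6 RPKM (lowest, median, highest) at Day 5, against 0, 0.323 and 3.58 in controls. Day 5 replicate 6 alone was at 14.6, the next Day 5 library at 6.71, and 2 controls stood above the lowest Day 5 library. The difference was 1.45 (SE 0.43), rank 451 of 4319.

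Ms4a6c, a gene of monocytes, held 0.528, 2.67 and 13.6 RPKM at Day 5, against 0, 0.0814 and 5.86 in controls. Most controls were near 0, but 3 controls stood above the lowest Day 5 library and 2 Day 5 libraries exceeded every control. The difference was 1.34 (SE 0.52), rank 564 of 4319.

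Ms4a6b, also described in T cells, was the lowest of the 4. It held 0.222, 0.849 and 7.97 RPKM at Day 5, against 0.00717, 0.126 and 1.24 in controls. The high values were those of Day 5 replicates 1 and 3, with 7.97 and 7.66, and the other Day 5 libraries were at 1.53 or less. The plain difference of group means was 0.97 on the log2(RPKM + 1) scale, with no test because the gene was below the filter.

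**Figure D1:**
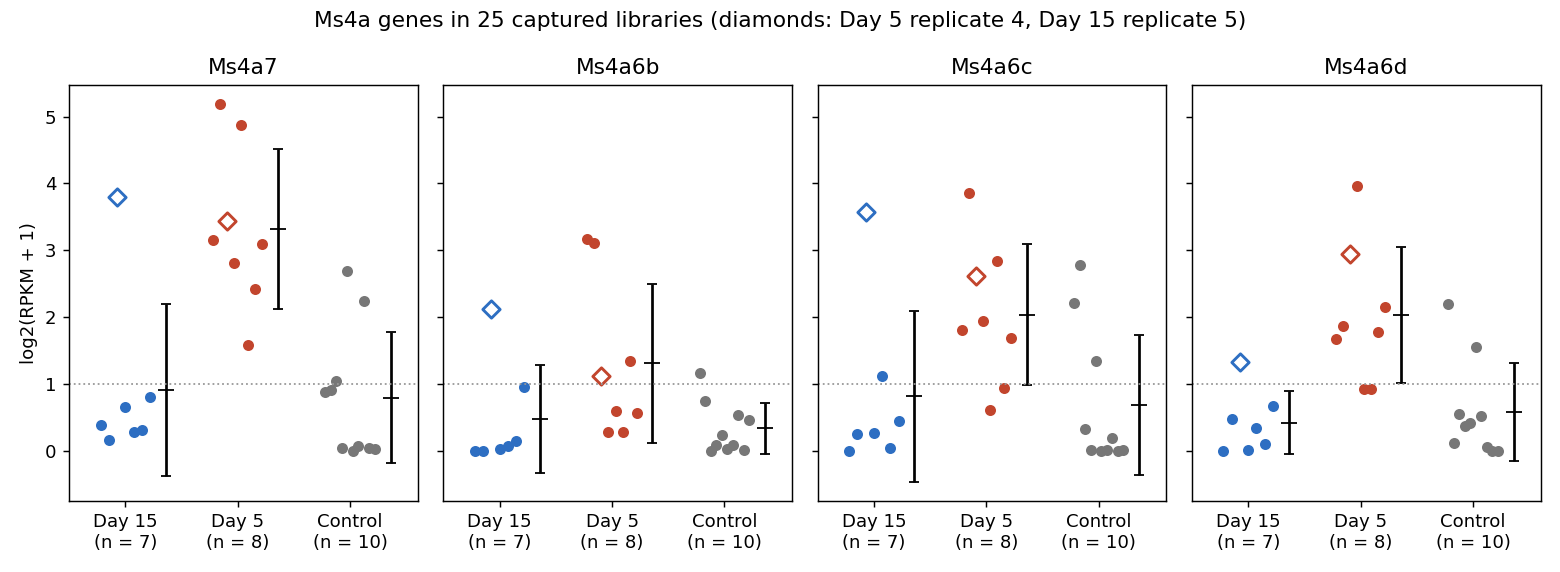
Level of each gene as log2(RPKM + 1) on the vertical axis, 1 point per library, for Day 15 (n = 7), Day 5 (n = 8) and controls (n = 10). Bars give the mean and SD of each group, the dotted line is an RPKM of 1, and open diamonds are the 2 libraries that resemble each other, of which Day 15 replicate 5 stands above the other Day 15 libraries in all 4 panels.

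The fit with limma called 2 of the 3 tested genes, Ms4a7 and Ms4a6d, higher at Day 5 (adjusted p under 0.05), where 6.02% of all tested genes were called higher. Because the genes were selected with these values known, nothing is read from that count. All tested genes together stood higher at Day 5, with a median difference of 0.61, against which the 3 tested genes had 1.34 to 2.52. The calls depended on how libraries were scaled. Under upper-quartile scaling, which moved the median of all genes to -0.09, the differences of Ms4a7 and Ms4a6d were 1.59 and 0.61, and neither was called. After quantile normalization Ms4a7 was called with 2.00 and Ms4a6d had 0.86 and was not.

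Leaving out 1 library gave Day 5 differences of 2.26 to 2.77 for Ms4a7, which stayed called. These calls describe genes that were selected on the same values. Ms4a6d lost its call without Day 5 replicate 3, 4 or 10, or without Control replicate 3, 4, 7, 8, 9 or 10, and also without the 2 resembling libraries together (difference 1.32). Ms4a6c was called without Control replicate 2, with 1.58. Within replicate numbers 1 to 6 the Day 5 differences of Ms4a7, Ms4a6b, Ms4a6c and Ms4a6d were 2.72, 1.54, 1.44 and 1.74, and within 7 to 10 they were 2.39, 0.42, 1.46 and 1.30.

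The number of genes at an RPKM of 1 or more moved with these levels. Over 25 libraries it correlated at 0.799 with the mean log2(RPKM + 1) of the 4 genes, at 0.779 with Ms4a6b, 0.778 with Ms4a6c, 0.673 with Ms4a7 and 0.436 with Ms4a6d. With that number as a covariate the Day 5 differences were 1.71 for Ms4a7 and 1.30 for Ms4a6d, but 0.21 for Ms4a6c and 0.12 for Ms4a6b, and none of the 3 tested genes was called. More cells of a type and more of a transcript per cell cannot be told apart in these libraries.

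At Day 15 no library but replicate 5 held any of the 4 genes above the highest control. Ms4a7 held 0.119, 0.315 and 12.8 RPKM (lowest, median, highest) at Day 15, against 0, 0.449 and 5.45 in controls. Replicate 5 had the 12.8, and the next Day 15 library was at 0.758. Ms4a6c held 0, 0.210 and 11.0 RPKM at Day 15, against 0, 0.0814 and 5.86 in controls, with 1.17 in the next library after replicate 5.

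Ms4a6b held 0, 0.0552 and 3.37 RPKM at Day 15, against 0.00717, 0.126 and 1.24 in controls. Ms4a6d held 0.00243, 0.267 and 1.51 RPKM at Day 15, against 0, 0.323 and 3.58 in controls. Replicate 5 was the highest Day 15 library for both, and for Ms4a6d it lay within the range of the controls. The differences from control were 0.12 (SE 0.59) for Ms4a7, 0.12 (SE 0.54) for Ms4a6c, -0.16 (SE 0.45) for Ms4a6d and 0.14 for Ms4a6b, which was not tested. The median of all genes was 0.17. None of the 3 tested genes was called in this comparison, in which limma called 0.0926% of genes higher and 383 genes had an unadjusted p under 0.05. Without Day 15 replicate 5 the differences were -0.36 for Ms4a7, -0.34 for Ms4a6c, -0.31 for Ms4a6d and -0.14 for Ms4a6b.

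Set against Day 5, each gene was lower at Day 15, and leaving out Day 15 replicate 5 made the difference larger. The mean of Ms4a7 was 2.15 ± 4.72 RPKM at Day 15 (SD, n = 7), against 12.7 ± 12.2 at Day 5 (SD, n = 8). Without replicate 5 the Day 15 mean was 0.373 ± 0.245 RPKM (SD, n = 6), and all 8 Day 5 libraries stood above all of the other 6. The same held for Ms4a6d. For Ms4a6c 6 of 8 Day 5 libraries, and for Ms4a6b 4 of 8, stood above those 6. The share of all tested genes that stand apart in this way was not computed, here or at Day 5 against control. Nothing particular to these genes is therefore read from the overlap.

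The difference of Day 15 from Day 5 was -2.41 (SE 0.62) for Ms4a7, rank 12 of 4319 from the bottom. It was -1.61 (SE 0.47) for Ms4a6d and -1.22 (SE 0.56) for Ms4a6c, ranks 153 and 486 from the bottom, and -0.83 for Ms4a6b, where the median of all genes was -0.44. The limma fit called 0% of the 4319 genes lower (0 genes), none of the 4 among them, while 633 genes had an unadjusted p under 0.05, 599 of them lower at Day 15. Without Day 15 replicate 5, 8 of 4319 genes were called, all lower at Day 15, and Ms4a7 was one of them with -2.88. The others were Cd68, F13a1, Il7r, Lgals3, Msr1, Spp1 and Tnfaip8, several of them genes of macrophages. Without both resembling libraries 10 of 4319 genes were called, Ms4a7 with -2.87. Ms4a7 was selected with these values known and was high in Day 15 replicate 5, so nothing is read from its calls. All 3 comparisons share libraries, so their values are not independent of each other.

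**Figure D2:**
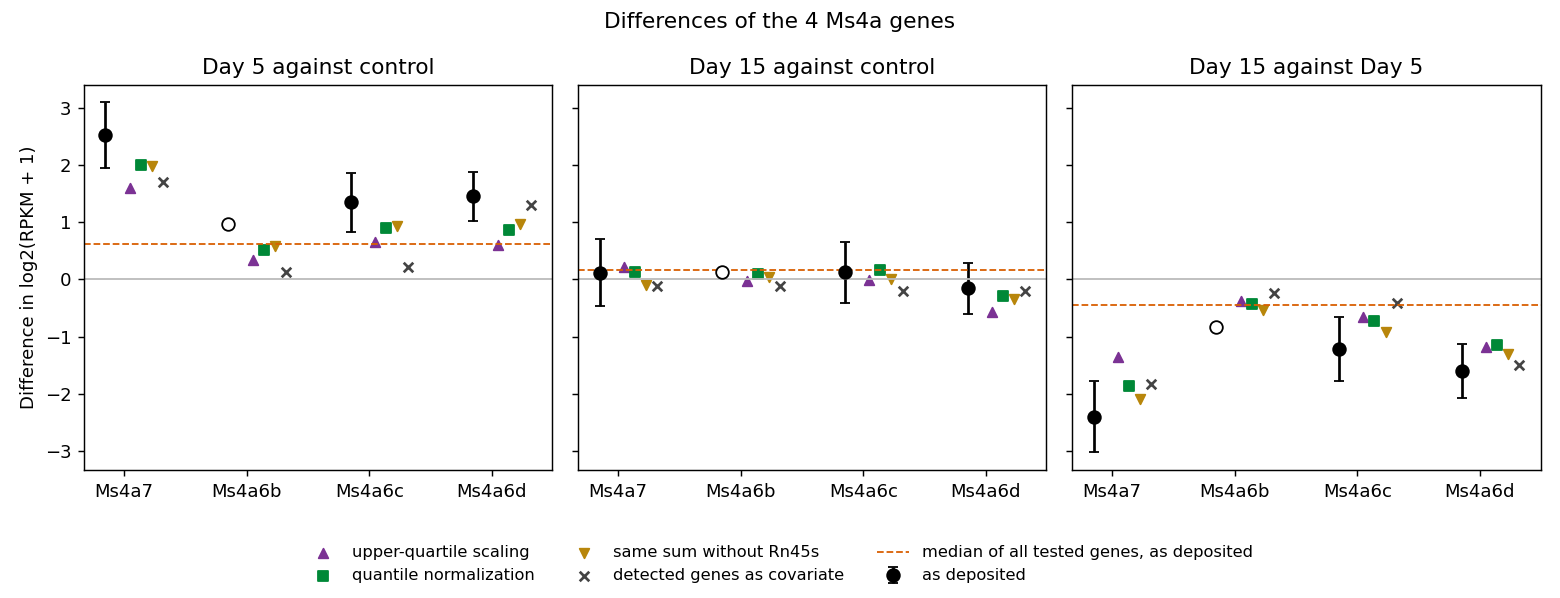
Difference in log2(RPKM + 1) for each gene in the 3 comparisons, as deposited (black, bars give the SE, open circles for Ms4a6b, which was below the filter) and under 3 scalings and 1 covariate. The dashed line is the median of all 4319 tested genes as deposited, 0.61, 0.17 and -0.44 from left to right. At Day 5 against control Ms4a7 stays between 1.59 and 2.52 in the settings drawn.

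The mix of the 4 genes differed between libraries of the same group. Summed over the 4, levels were 0.317 to 28.7 RPKM at Day 15, 9.27 to 59.4 at Day 5 and 0.0508 to 9.32 in controls. Only 1 control reached the lowest Day 5 sum. Ms4a7 was the highest of the 4 in 4 of 7 libraries at Day 15, in 5 of 8 at Day 5 and in 4 of 10 controls. In Day 5 replicate 7 it made up 93.6% of the sum and in Day 5 replicate 8 21.6%, where Ms4a6c made up 66.4%. In Day 5 replicate 6 Ms4a6d made up 61.6%, and in Day 5 replicate 1 Ms4a6b and Ms4a7 had 38.7% and 38.5%.

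**Figure D3:**
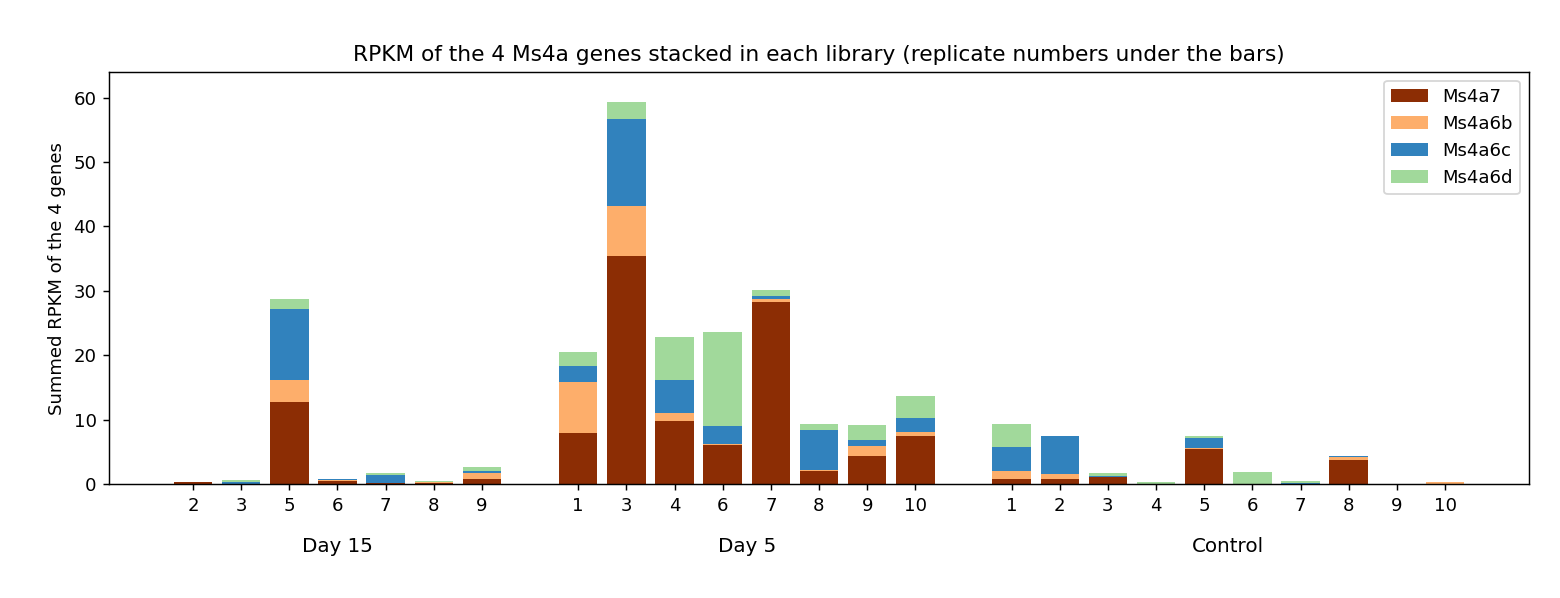
Summed RPKM of the 4 genes in each library on the vertical axis, split by gene, for Day 15, Day 5 and controls. Day 15 replicate 5, at 28.7, stands among the Day 5 libraries, while the other 6 Day 15 libraries are at 2.67 or less.

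Levels of the 4 genes followed each other across libraries, least of all for Ms4a6d. Over 25 libraries, which share their groups and the depth of each library, log2(RPKM + 1) of Ms4a7 correlated at 0.67 with Ms4a6b, 0.65 with Ms4a6c and 0.55 with Ms4a6d. Ms4a6b correlated at 0.67 with Ms4a6c and 0.41 with Ms4a6d, and Ms4a6c at 0.54 with Ms4a6d. Among the 15 stroke libraries, each day centred on its own mean, Ms4a7 had 0.62, 0.55 and 0.18 with the same 3 genes. Without the 2 resembling libraries, those 3 values were 0.45, 0.10 and -0.09 over 13 libraries. Under upper-quartile scaling Ms4a7 had 0.28, 0.48 and 0.37 with them over 25 libraries. In the 10 controls Ms4a6b and Ms4a6c correlated at 0.76 and Ms4a7 with Ms4a6d at -0.11.

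The genes most like the mean of the 4 over 25 libraries were mostly genes that were higher at Day 5. They were Itgb2, the shared beta chain of the leukocyte integrins (0.87), Lgals3, a galectin of activated phagocytes (0.86), Mcl1, a survival factor (0.86), Fblim1 (0.85), Naa15 (0.83), Atp8b4 (0.83), Renbp (0.82), Tnfaip8 (0.82), Klf6, a zinc finger transcription factor (0.82), and Il7r, the interleukin-7 receptor (0.81). The median over 4180 candidate genes was 0.33. Without the 2 resembling libraries the 10 genes had 0.772 to 0.871. All but Naa15 were among the genes called higher at Day 5, with differences of 1.24 for Atp8b4 to 2.64 for Lgals3. Of the 25 fits that left out 1 library, the call of Klf6 was kept in 24 (lost without Day 5 replicate 3) and that of Mcl1 in 15. Since they were picked for following genes that are high at Day 5, over the same libraries, that direction was largely fixed by the choice. Among the 15 stroke libraries centred by day Il7r had 0.62, and 0.30 without the 2 resembling libraries.

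With each day centred, the 10 most alike among the 15 stroke libraries were other genes. They were Fabp5, a fatty acid binding protein (0.94), Gltscr2 (0.93), Jun, a subunit of AP-1 (0.92), Gsr, the glutathione reductase (0.92), Nup205, a nuclear pore protein (0.91), Pex5l (0.90), Lifr (0.89), Carhsp1 (0.89), Scamp5 (0.89) and Mrpl17 (0.88), and without the 2 resembling libraries they had 0.711 to 0.906. Of the 10 named over 25 libraries, 0 were among them, and none of them was called higher at Day 5. For single genes over 25 libraries, Smarcad1 (0.86), Mcl1 (0.81) and Spp1 (0.80) were most like Ms4a7. Prr13 (0.87) and Hif1a (0.86) were among the 3 most like Ms4a6b, and Itga4 (0.83), Pa2g4 (0.83) and Slc3a2 (0.82) most like Ms4a6c. Adam17 (0.83), Brk1 (0.82) and Hgf (0.81) were most like Ms4a6d.

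Most other genes of the family were low, with Ms4a4c as an exception. RefSeq lists 21 Ms4a genes in 1 cluster on chromosome 19, and 18 of them were matched in the table. Of the 14 that are not among the 4, 10 stayed under an RPKM of 1 in every library, with 0.938 as the highest value. These included Ms4a1, at most 0.192, and Ms4a2, at most 0.0268. The neighbours Ms4a4c and Ms4a4b lie between Ms4a7 and Ms4a6c in that order.

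Ms4a4c, a myeloid gene, held at most 0.154 RPKM at Day 15, while it held 0.291, 1.09 and 30.4 at Day 5, against 0, 0.372 and 3.67 in controls. Day 5 replicate 10 had the 30.4 and the next Day 5 library 3.10. Its difference was 0.82 at Day 5 against control (SE 0.44, limma adjusted p = 0.226) and -1.45 at Day 15 against Day 5 (SE 0.48, limma adjusted p = 0.221), so it did not pass in either. Ms4a4b reached 2.38 RPKM in Day 5 replicate 6, Ms4a3 4.85 in Control replicate 4 and Ms4a10 2.66 in Control replicate 1, each in a library that stood apart from its group.

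The related genes Tmem176b and Tmem176a, which encode membrane proteins of dendritic cells and macrophages on another chromosome, were also variable. Tmem176b held 0.00688, 0.622 and 135 RPKM at Day 5, against 0.00214, 0.305 and 16.8 in controls, with the 135 in Day 5 replicate 3 and 3.49 in the next library. Its difference at Day 5 was 0.81 (SE 0.64, limma adjusted p = 0.420), and -0.07 under upper-quartile scaling. Tmem176a reached 11.1 RPKM in Day 5 replicate 10 and was below the filter. Over the 14 genes of the family list in the table (18 listed), 2 were tested and 0 passed in any comparison, and their median Day 5 difference was 0.82 where that of all genes was 0.61.

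**Figure D4:**
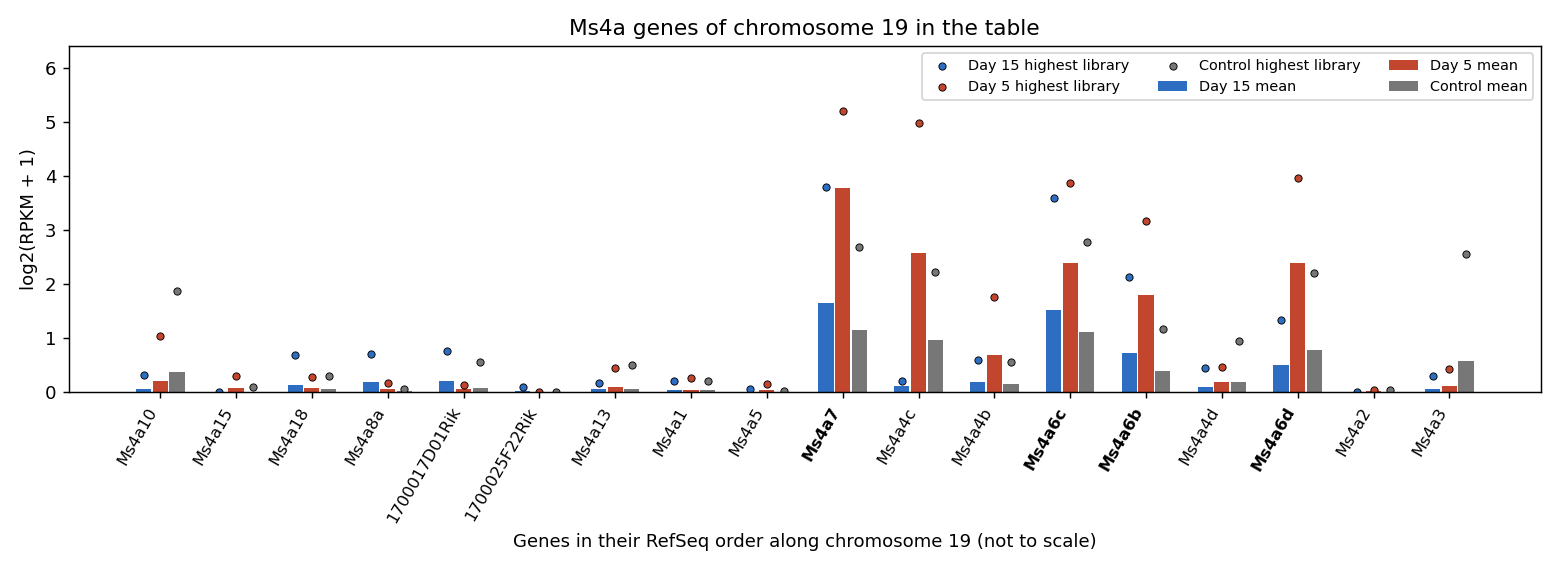
Ms4a genes of chromosome 19 in their RefSeq order, with log2 of the group mean RPKM + 1 as bars and of the highest library as points. Ms4a7, Ms4a6b, Ms4a6c, Ms4a6d and Ms4a4c have the tallest Day 5 bars, and the bars of the others stay under 1.

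MS4A proteins are thought to act beside receptors that signal through immune tyrosine-based motifs, so genes of that pathway were read in the same fit. Of 16 receptors, adaptors and kinases in the list, 11 were tested, 4 were called higher at Day 5 and 0 lower, where 6.02% of all tested genes were called higher, and the median difference was 1.17, where that of all genes was 0.61. None of these 4 calls was kept under upper-quartile scaling, quantile normalization, equal sums or the detected-gene covariate. The 4 were the receptor Trem2 and its adaptor Tyrobp, the adaptor Fcer1g and the kinase Syk, which had 1.17 (SE 0.33, limma adjusted p = 0.0288). The call of Tyrobp was kept in all 25 fits that left out 1 library. That of Trem2 was lost without Day 5 replicate 1, that of Syk when any 1 of Day 5 replicates 3 and 10 and Control replicates 9 and 10 was left out, and that of Fcer1g was kept in 8 of the 25. At Day 15 none was called, while the list's median difference from control was 1.34. Clec7a averaged 37.2 ± 90.1 RPKM (SD, n = 7) at Day 15 and 1.49 ± 2.97 (SD, n = 10) in controls, and Cd33 17.1 ± 31.5 and 0.689 ± 1.37. The highest Day 15 library held 242 RPKM of Clec7a and 87.9 of Cd33, while the Day 15 medians were 3.62 and 5.27. Control medians were 0.787 and 0.158. Neither passed (limma adjusted p = 0.283 for Clec7a and 0.0850 for Cd33).

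Of 19 myeloid transcription factors, 8 were tested, 4 were called higher at Day 5 and 0 lower, where 6.02% of all tested genes were called higher. The median difference was 0.89, where that of all genes was 0.61. None of these 4 calls was kept under the 3 scalings or the covariate either. Among them were Runx1, a factor of blood cell development, with 1.57 (SE 0.45, limma adjusted p = 0.0306), and the interferon regulatory factors Irf8 and Irf5. The call of Runx1 was kept in 20 of the 25 fits that left out 1 library, that of Irf8 in 13 and that of Irf5 in 11. Sfpi1, which encodes PU.1, held 0.124, 1.01 and 108 RPKM at Day 5, against 0, 0.233 and 0.936 in controls, and was below the filter. At Day 15 Mef2c had a median of 5.00 RPKM and 335 in its highest library, and Sall1 had 2.40 and 89.0. Neither passed in any comparison.

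Of the phagocyte lists, that of infiltrating monocytes and macrophages had the most calls at Day 5. All 20 genes of infiltrating monocytes and macrophages were in the table, and none was at 0 in every library. Their summed level was 45.9 to 603 RPKM at Day 15, 192 to 2639 at Day 5 and 4.27 to 128 in controls. Of the 11 tested, 8 were called higher at Day 5 and 0 lower (Lyz2, Cd68, Lgals3, Gpnmb, Spp1, Msr1, Mpeg1 and Cd36), where 6.02% of all tested genes were called higher, with a median difference of 2.64. Over all lists 21 genes were called, of which 1 (Spp1) was kept under upper-quartile scaling and 0 with the detected-gene covariate. After quantile normalization and with equal sums 5 were kept, all of this list (Cd68, Gpnmb, Lgals3, Lyz2 and Spp1), and 17 without the 2 resembling libraries. Lyz2, Spp1 and Gpnmb had the highest levels in stroke libraries. Ly6c2, also of this list, had a Day 5 difference of 1.01 (SE 0.50, limma adjusted p = 0.185) and was not called. Ccr2, Plac8 and Chi3l3 of the list were below the filter. The name of the list does not tell which cells gave the calls, and this was not tested. The call of Cd36 was lost without Day 5 replicate 3. At Day 15 against Day 5 the median of the list was -2.09, where that of all genes was -0.44, and none was called.

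For border-associated macrophages all 13 genes were in the table and none was at 0 throughout, with sums of 1.96 to 108 RPKM at Day 15, 1.13 to 116 at Day 5 and 0.443 to 13.2 in controls. Day 15 replicate 5 had the 108, and the other Day 15 libraries reached 9.00. Of 3 tested, F13a1 was called higher at Day 5 with 1.796 (SE 0.57, limma adjusted p = 0.0478), a call kept in 8 of the 25 fits that left out 1 library. For microglia all 19 genes were in the table and none was at 0 throughout, with sums of 76.1 to 1661 RPKM at Day 15, 101 to 821 at Day 5 and 21.3 to 133 in controls. Day 15 replicate 5 had the 1661, and the other Day 15 libraries reached 448. P2ry12, a marker of resting microglia, had a Day 5 difference of -0.0245. Of 18 tested, 4 were called higher at Day 5 and 0 lower, among them Itgam, C1qc and Ctss. The call of Ctss was kept in all 25 fits, that of C1qc in 17 and that of Itgam in 16. The median of the microglia list was 1.13 at Day 5 and 1.55 at Day 15, both against control.

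The mean log2(RPKM + 1) of the 4 genes correlated at 0.87 with that of the infiltrating list, at 0.80 with the border-associated list and at 0.45 with the microglia list, over 25 libraries that share group and depth. Without the 2 resembling libraries these were 0.84, 0.74 and 0.44. Lists of other cells also followed the 4 genes, with 0.66 for the precursor list, 0.58 for endothelial cells and 0.57 for T and NK cells, each above the microglia list. With the infiltrating, border-associated and microglia lists Ms4a7 had 0.80, 0.72 and 0.42 over 25 libraries, and Ms4a6b 0.68, 0.78 and 0.52. Ms4a6c had 0.73, 0.80 and 0.39, and Ms4a6d 0.64, 0.33 and 0.16. Ms4a6d had 0.65 with the neutrophil list, 0.59 without the 2 resembling libraries, and 0.80 among the stroke libraries centred by day. Neutrophil sums were 4.93 and 3.40 RPKM in Day 5 replicates 6 and 4 and at most 0.489 in the other Day 5 libraries. Those 2 libraries also had the highest Ms4a6d, 14.6 and 6.71 RPKM. Among the stroke libraries centred by day, the mean of the 4 had 0.73, 0.76 and 0.32 with the phagocyte lists. With the number of genes at an RPKM of 1 or more it had 0.75 in the same libraries. It had 0.67 there with endothelial cells, 0.63 with T and NK cells and 0.55 with the precursor list. The part of these cells in the levels of the 4 genes was not tested.

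**Figure D5:**
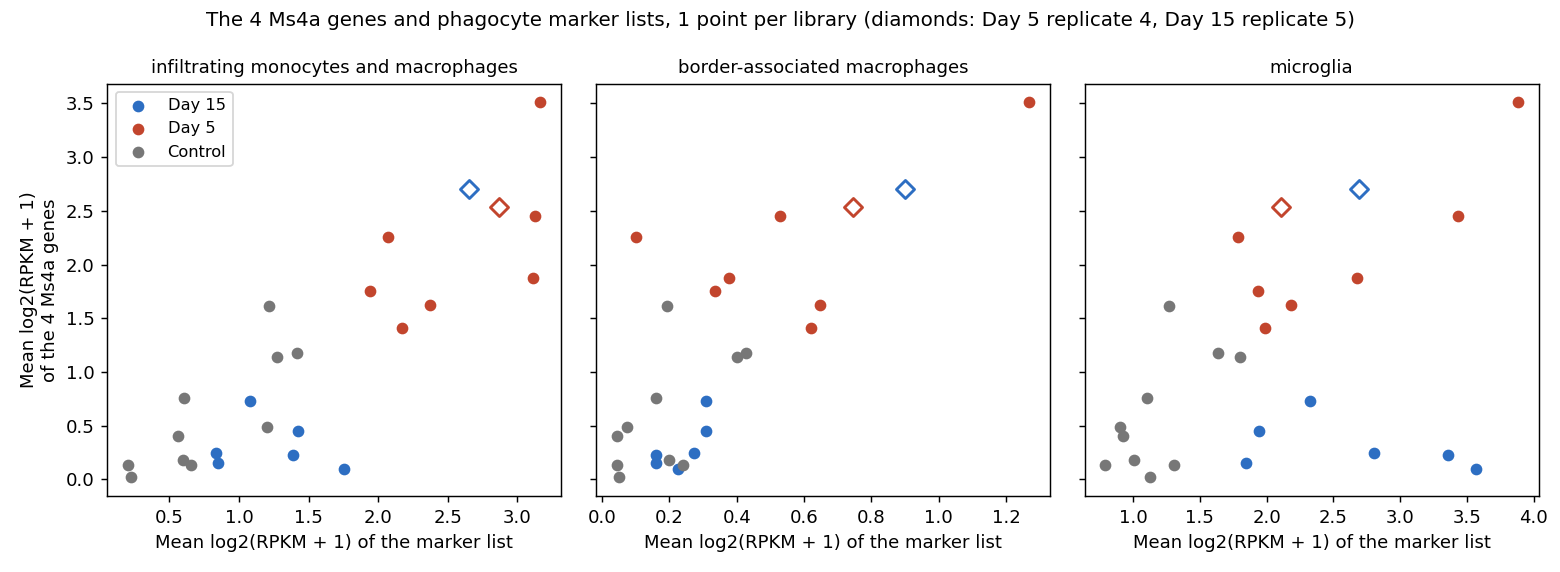
Mean log2(RPKM + 1) of the 4 genes on the vertical axis against that of 3 lists of phagocyte markers on the horizontal axes, 1 point per library, coloured by Day 15, Day 5 and control. Of the 3 lists drawn, the infiltrating list had the highest correlation over 25 libraries (0.87) and the microglia list the lowest (0.45). Among the stroke libraries centred by day, the border-associated list had 0.76 and the infiltrating list 0.73.

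Markers of lymphocytes and granulocytes were low. Summed levels of 7 B cell genes were 0.0212 to 10.6 RPKM at Day 15, 0.336 to 4.79 at Day 5 and 0 to 3.45 in controls. Those of 10 T and NK cell genes were 0.0615 to 8.53, 0.155 to 6.63 and 0.00179 to 2.05 in the same groups. Those of 6 mast cell genes were 0 to 0.820, 0.0381 to 4.31 and 0.00562 to 8.74, and those of 8 neutrophil genes 0 to 1.43, 0.128 to 4.93 and 0.00144 to 0.918. Without Day 15 replicate 5 the highest Day 15 sums were 5.75 for T and NK cells, 0.373 for mast cells and 0.255 for neutrophils. Among the highest were Cd22 and Cd79a of B cells, Cd4, Lck and Cd8a of T cells, Cpa3, Hdc and Fcer1a of mast cells, and Cxcr2, Ltf and S100a8 of neutrophils. None of these genes passed the filter and none was at 0 in every library. Of 10 dendritic cell genes 5 were tested and 0 called, with a median Day 5 difference of 1.14.

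The labelled cell type was read from its own markers. All 14 precursor genes were in the table and none was at 0 throughout, with sums of 12.5 to 53.7 RPKM at Day 15, 18.2 to 117 at Day 5 and 6.46 to 111 in controls. Pdgfra, a receptor that defines these cells, averaged 1.35 ± 2.30 RPKM (SD, n = 7) at Day 15, 7.03 ± 7.84 (SD, n = 8) at Day 5 and 1.11 ± 1.21 (SD, n = 10) in controls. Mature oligodendrocyte genes summed to 46.5 to 581 RPKM at Day 15, 98.4 to 1206 at Day 5 and 142 to 1334 in controls, and the sum was above that of the precursor genes in each library. Astrocyte genes summed to 23.0 to 327, 19.9 to 763 and 16.6 to 349 RPKM in the same groups, neuronal genes to 0.0679 to 76.5, 0.193 to 4.39 and 1.72 to 19.5, and endothelial genes to 0.256 to 29.4, 2.38 to 18.6 and 0.0245 to 11.8. No gene of these 5 lists was called in any comparison. Among the highest in stroke libraries were Ptprz1, Sox10 and Sox6 of the precursor list, Mbp and Ermn of oligodendrocytes, Gfap, Slc1a2 and Aqp4 of astrocytes, Snap25, Stmn2 and Camk2a of neurons, and Flt1, Pecam1 and Cdh5 of endothelium.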

How the data were processed

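The authors deposited 1 table of RPKM values for 25 libraries, and 0 of its columns were left unused. Per the labels' protocols, laser-captured RNA was amplified with a Nugen Ovation kit, made into TruSeq libraries and sequenced as 100 bp paired ends. The submitters' processing notes name CASAVA 1.8.3, STAR 2.1.4a, HTSeq and the build mm9. No source used here states how RPKM was computed, whether strand was used or the depth, and low values did not fall on steps of whole reads. No libraries held identical values.

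Values were taken as log2(RPKM + 1). Genes with an RPKM of 1 or more in at least 7 libraries (4319) were fitted with limma 3.58.1 (R 4.3.3, trend and robust) over all 25 libraries, two-sided, and called at a Benjamini-Hochberg adjusted p under 0.05. The fit was tested on simulated data. Descriptions used Python 3.11.15 with numpy 2.4.6, scipy 1.17.1, pandas 2.3.3 and Biopython 1.88. Promoters came from RefSeq and transcripts from GENCODE vM21. Older symbols were matched through RefSeq synonyms, so PU.1 is read as Sfpi1, and Ms4a4a, Ms4a12, Ms4a14, Ighm and Ly6g were not matched.

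The 4 genes, the gene lists and the tests were chosen with earlier results of these data known. Genes named are the 4, their family, the most alike by correlation (10 for the mean of the 4, 3 for each gene, predicted models left out), and the called and highest genes of each list. Alternatives changed the pseudocount, filter, scaling, covariates and libraries. Labels do not say that libraries come from separate animals, so p-values measure only the spread between libraries, which may be technical. Some genes that the rule would name are not reported here.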

Additional observations from a re-analysis of the deposited data

Results flagged for a closer look

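Of 30 groups of libraries checked for the 4 genes and 6 relatives, 20 held 1 library far from the others by Dixon's 95% criterion, which chance meets in about 1 in 20 groups of normally distributed values. These RPKM values are skewed, with many at 0, and the rate for such values was not computed. Day 15 replicate 5 gave 6 of the 20. It held 12.8 RPKM of Ms4a7 (next library 0.758), 3.37 of Ms4a6b (0.943), 11.0 of Ms4a6c (1.17), 1.51 of Ms4a6d (0.600), 0.515 of Ms4a4b (0.210) and 0.245 of Ms4a10 (0.0595). Among Day 5 libraries, replicate 3 held 13.6 RPKM of Ms4a6c (6.18) and 135 of Tmem176b (3.49), and replicate 6 held 14.6 of Ms4a6d (6.71) and 2.38 of Ms4a4b (0.766). Day 5 replicate 10 held 30.4 RPKM of Ms4a4c (3.10) and 11.1 of Tmem176a (5.10).

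The remaining values were lower or fell outside the stroke groups. Day 5 replicate 1 held 0.346 RPKM of Ms4a3 (0.131) and 1.04 of Ms4a10 (0.126), and Day 15 replicate 9 held 0.224 of Ms4a3 (0.0853). Among controls, replicate 5 held 16.8 RPKM of Tmem176b (2.31), replicate 2 held 0.833 of Tmem176a (0.180), replicate 10 held 0.469 of Ms4a4b (0.169), replicate 4 held 4.85 of Ms4a3 (0.0487) and replicate 1 held 2.66 of Ms4a10 (0.150).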

How the results depend on the processing

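At Day 5 against control 261 genes were called. The count was 553 with a pseudocount of 0.1, 24 without a filter, 2 under upper-quartile scaling, 38 after quantile normalization, 33 with equal sums, 0 with genes at an RPKM of 1 or more (the detected-gene number) as covariate, 398 with the number range as a covariate, 4 and 4 within each range, and 96 to 418 leaving out 1 library. With the replicate block it was 499. Same-numbered libraries correlated at -0.0573 to 0.0842 over 20 pairs, 0 of them over 0.1. Their median was 0.0136, against 0.00122 for other pairs from different groups, and 2 of 25 libraries correlated best with their own number. No pairing by number was seen, but a wide spread between libraries could hide one, so it is not excluded. At Day 15 against control 4 genes were called, against 38 with a pseudocount of 0.1, 0 without a filter, 1 with equal sums, 2 with the compared groups alone, 1 with the detected-gene covariate, 0 and 0 within ranges, and 0 to 6 leaving out 1 library. At Day 15 against Day 5 the count of 0 was 10 without the 2 resembling libraries, an alternative chosen after seeing the data, and 0 to 8 leaving out 1. Of the 4 genes 2 were called at Day 5, 3 with a pseudocount of 0.1 and with the replicate block (Ms4a6c as well), but 0 without a filter, under upper-quartile scaling, with equal sums, with the detected-gene covariate and within either range, 1 after quantile normalization and 1 without the 2 resembling libraries, and 1 to 3 leaving out 1. The Day 5 difference of Tmem176b was -0.0725 under upper-quartile scaling and -0.49 with the detected-gene covariate. Its difference at Day 15 against Day 5, -0.19, was 0.39 with a pseudocount of 0.1, 1.08 under upper-quartile scaling, 0.16 after quantile normalization, 0.0244 with equal sums, 0.73 with the detected-gene covariate, 0.39 within numbers 7 to 10, and -0.42 to 0.59 leaving out 1 library. With a pseudocount of 0.1 the Day 5 differences of Ms4a7, Ms4a6b, Ms4a6c and Ms4a6d were 4.16, 2.11, 2.96 and 2.88, and those at Day 15 against Day 5 were -3.67, -2.11, -2.54 and -3.16. With the detected-gene covariate the Day 5 difference was 0.12 for Ms4a6b and 0.21 for Ms4a6c, and upper-quartile scaling gave 0.61 for Ms4a6d. Directions of the 4 genes at Day 5 against control and at Day 15 against Day 5 were kept in all alternatives. The cause of these shifts was not tested, and depth is unknown.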
